A study of Mus musculus with 7 samples.

Results

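Stem and progenitor cells were compared with Ly6G+ cells in bone marrow of HMGA2-OE mice, with 1 RNA-seq library on each side. The members of the comparison are the genes with at least 1 TPM (a share of all transcripts corrected for length, scaled to a fixed total) in either library, and 12410 of the 28987 listed genes met that rule. Of them 8161 reached 1 TPM in both libraries, 3851 in the progenitor library only and 398 in the Ly6G+ library only. Each gene is given by its log2 ratio of progenitor over Ly6G+ TPM with 1 TPM added to both, which understates the differences of genes with low TPM. There is no replicate of either library, so no test is made of any ratio.

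The study profiled C57BL/6 bone marrow of individual mice with overexpression of HMGA2 (HMGA2-OE), with mutant RUNX1 (RUNX1mut), with both, or with neither (Control). Stem and progenitor cells, named HSC/P here, were enriched by selection for CD117, the protein of Kit, and the mutant clone was then sorted by flow cytometry. The other fraction was myeloid cells sorted for Ly6G, a surface antigen of mouse neutrophils. They were mutant cells except in Control, which carries neither change. The HSC/P libraries are 1 of HMGA2-OE and 2 of the genotype with both changes, RUNX1mut/HMGA2-OE, called the combined genotype. The 4 Ly6G+ libraries, 1 of each genotype, complete the 7 libraries, and "the other Ly6G+ libraries" below are always in the order Control, RUNX1mut, RUNX1mut/HMGA2-OE. Where 3 HSC/P and 4 Ly6G+ values are listed, the HMGA2-OE library comes first in each. The promoter that drives HMGA2, the mark used to sort the clone, and the age and treatment of the mice are not stated in the sources used here. Both cell fractions of the comparison carry the HMGA2-OE genotype, so its ratios hold no contrast between HMGA2-OE and unmodified cells.

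Neutrophils arise from Kit-positive progenitors through promyelocyte, myelocyte and metamyelocyte stages. Granule proteins are made in waves along that path: primary granule proteases at the promyelocyte stage, secondary granule proteins in myelocytes, and gelatinase and receptor-bearing vesicles last. Division stops after the myelocyte stage, the nucleus becomes segmented and the cell's store of ribosomes and mitochondria shrinks. HMGA2 is a chromatin-bound protein of fetal stem cells that is normally low in adult marrow, and its overexpression in blood stem cells is known from clonal myeloid disease.

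The promoters of genes from 2 granule waves and of 1 replication gene are shown first, since these groups stood on opposite sides of the comparison. Each line is the 250 bases before a RefSeq transcription start (GRCm38.p6), read 5′ to 3′ on the gene's strand, and the starts of Mmp8 and Mcm6 were not matched to a GENCODE transcript. In the 7 granule genes the capitals mark TTGCNNAA, a C/EBP-type motif, or GAGGAA, a motif of PU.1 and other ETS factors, on either strand, and the 2 motifs do not overlap there. In Mcm6 they mark the E2F-type words TTTCCCGC, TTTGGCGC, TTTCGCGC and TTTGCCGC on either strand, with 3 matches of which 2 overlap. The first 3 lines are primary granule genes, the next 4 are secondary and tertiary granule genes, and the last encodes a subunit of the replicative helicase.
Prtn3 (chr10:79879417-79879666, plus strand): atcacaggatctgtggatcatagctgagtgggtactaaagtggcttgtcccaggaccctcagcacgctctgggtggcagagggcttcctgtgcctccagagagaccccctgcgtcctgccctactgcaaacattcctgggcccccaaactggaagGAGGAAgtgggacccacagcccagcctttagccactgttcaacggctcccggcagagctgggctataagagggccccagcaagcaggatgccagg
Mpo (chr11:87793534-87793783, plus strand): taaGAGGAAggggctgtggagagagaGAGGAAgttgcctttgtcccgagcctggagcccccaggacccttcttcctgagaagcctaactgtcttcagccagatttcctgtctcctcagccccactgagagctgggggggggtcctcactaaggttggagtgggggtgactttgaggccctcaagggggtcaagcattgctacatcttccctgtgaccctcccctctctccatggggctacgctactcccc
Elane (chr10:79886062-79886311, plus strand): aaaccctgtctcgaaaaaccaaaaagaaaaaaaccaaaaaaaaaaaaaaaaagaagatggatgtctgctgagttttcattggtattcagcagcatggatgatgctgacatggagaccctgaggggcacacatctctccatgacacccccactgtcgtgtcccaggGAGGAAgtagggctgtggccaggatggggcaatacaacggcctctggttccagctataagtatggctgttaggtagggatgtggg
Ngp (chr9:110419558-110419807, plus strand): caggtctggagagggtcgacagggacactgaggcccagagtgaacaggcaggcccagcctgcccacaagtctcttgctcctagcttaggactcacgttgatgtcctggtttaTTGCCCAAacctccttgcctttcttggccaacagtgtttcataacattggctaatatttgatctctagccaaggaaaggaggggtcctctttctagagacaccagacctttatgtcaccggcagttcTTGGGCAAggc
Lcn2 (chr2:32387740-32387989, minus strand): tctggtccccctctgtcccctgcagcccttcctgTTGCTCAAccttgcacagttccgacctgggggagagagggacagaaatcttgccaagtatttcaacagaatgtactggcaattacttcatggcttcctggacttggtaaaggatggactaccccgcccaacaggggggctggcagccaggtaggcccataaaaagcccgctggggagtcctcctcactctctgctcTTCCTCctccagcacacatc
Ltf (chr9:111019042-111019291, plus strand): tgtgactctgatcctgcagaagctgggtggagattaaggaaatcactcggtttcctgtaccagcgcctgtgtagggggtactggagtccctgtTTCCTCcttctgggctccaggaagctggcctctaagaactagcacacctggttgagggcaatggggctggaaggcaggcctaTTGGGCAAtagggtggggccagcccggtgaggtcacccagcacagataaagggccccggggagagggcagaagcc
Mmp8 (chr9:7558179-7558428, plus strand): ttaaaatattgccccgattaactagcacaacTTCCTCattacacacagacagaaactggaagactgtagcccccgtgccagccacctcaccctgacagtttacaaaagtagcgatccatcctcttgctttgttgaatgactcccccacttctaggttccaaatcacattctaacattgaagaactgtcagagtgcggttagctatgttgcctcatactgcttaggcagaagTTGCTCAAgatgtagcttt
Mcm6 (chr1:128359706-128359955, minus strand): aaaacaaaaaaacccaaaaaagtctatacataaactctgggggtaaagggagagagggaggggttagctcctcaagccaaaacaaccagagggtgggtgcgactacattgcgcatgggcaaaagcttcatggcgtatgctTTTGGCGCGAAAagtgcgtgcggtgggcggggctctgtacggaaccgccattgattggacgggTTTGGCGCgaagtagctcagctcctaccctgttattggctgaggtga

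The promoters shown were not picked by a rule. Among them, the 3 primary granule promoters hold GAGGAA and no TTGCNNAA, and the 4 secondary and tertiary granule promoters each hold TTGCNNAA. The whole lists divide less cleanly. TTGCNNAA was present in 7 of the 19 secondary and tertiary granule genes with a promoter in the RefSeq table and in 1 of 12 primary granule genes, against 9.53% of 27025 promoters of the same length and 7.66% of the 9288 genes of the comparison that matched. GAGGAA was present in 6 of 12 primary granule genes and in 9 of 19 secondary and tertiary granule genes, among them Lcn2, Ltf and Mmp8. It was present in 98 of 273 matched genes at least 4-fold higher in HMGA2-OE Ly6G+ (35.9%), against 22.6% of the matched genes of the comparison. The E2F-type words were present in 6 of 25 DNA replication genes against 3.59% of the matched genes. These matches describe letters in a window and are not evidence of binding.

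Most genes took a larger share of the HSC/P library. The median log2 ratio over the 12410 genes was 1.83, a 3.56-fold higher TPM in HSC/P, and the genes between the quartiles lay between 0.84 and 2.88. The calprotectin genes S100a8 and S100a9 took 62.1% of all TPM in the Ly6G+ library and 5.93% in the HSC/P library, and a share taken by these 2 genes lowers all other shares. With both left out of the shares, the median log2 ratio was still 1.19, and the HSC/P side held 79.2% of the genes past 4-fold. At least 4-fold higher TPM in HSC/P was found for 5702 genes (45.9%), and at least 4-fold higher TPM in Ly6G+ for 421 genes (3.39%). Taken against the median ratio, 1288 genes (10.4%) lay at least 4-fold toward HSC/P and 1601 genes (12.9%) at least 4-fold toward Ly6G+, so the HSC/P side held 93.1% of the genes past 4-fold on the deposited scale and 44.6% on the centred one. A log2 ratio between 0 and 1.83 changes its sign when centred on the median, one up to 2.54 can change it under a trimmed mean of log ratios, and no direction is read from a gene's ratio in that range. Counts past 4-fold are on the scale of the deposited TPM. For every gene list below, the shares of all genes to set beside them are 45.9% toward HSC/P and 3.39% toward Ly6G+. In bulk libraries a smaller number of cells of a type and less RNA per cell cannot be told apart.

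**Figure D1:**
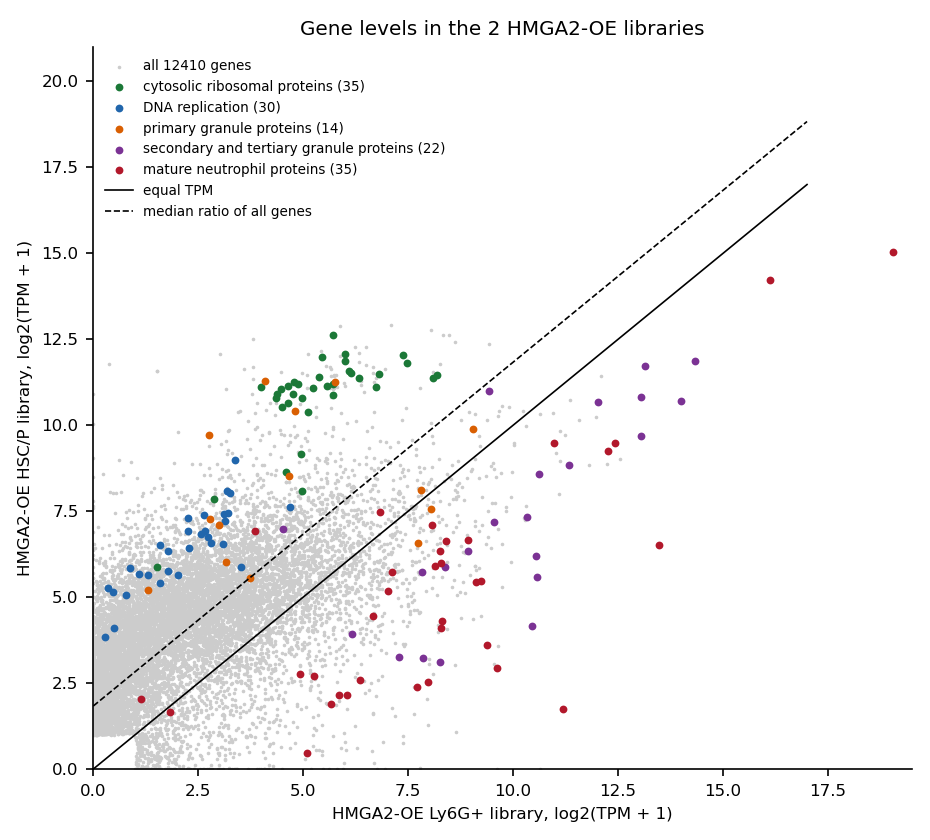
Each grey point is 1 of the 12410 genes, at log2(TPM + 1) in the HMGA2-OE Ly6G+ library (x axis) and the HMGA2-OE HSC/P library (y axis), with 5 gene lists in colour, the line of equal TPM (solid) and the median ratio of 1.83 (dashed). All ribosomal protein and DNA replication genes lie above the dashed line, most secondary granule and mature neutrophil genes lie below the solid line, and the primary granule genes are split.

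The size of these differences can be set beside the other libraries. The 2 RUNX1mut/HMGA2-OE HSC/P libraries, the only replicate pair, differed by 4-fold or more in 0.798% of the same genes, with an SD of 0.49 between them on the log2 scale. HMGA2-OE HSC/P against HMGA2-OE Ly6G+ had an SD of 1.84 and 49.3% of genes past 4-fold. HMGA2-OE Ly6G+ differed by 4-fold or more in 1.74% of genes from Control Ly6G+, in 2.11% from RUNX1mut Ly6G+ and in 4.51% from RUNX1mut/HMGA2-OE Ly6G+, and HMGA2-OE HSC/P differed in 1.72% and 2.51% from the combined-genotype pair. Over all 7 libraries, 8391 genes (67.6%) had every HSC/P library above every Ly6G+ library, and 1131 genes (9.11%) had every Ly6G+ library above every HSC/P library. With the libraries scaled by a trimmed mean of log ratios these counts were 4502 and 4366. RUNX1mut/HMGA2-OE Ly6G+ stood apart from the other Ly6G+ libraries, with 3.11% of its TPM in S100a8 against 40.2% to 55.0%, and without it the counts were 9419 and 1174. Of the 421 genes at least 4-fold higher in HMGA2-OE Ly6G+, 362 were among those 1131, and of the 5702 genes at least 4-fold higher in HSC/P, 5489 were among the 8391. The HMGA2-OE pair that picked these genes is also among the 7 libraries, so these 2 counts are partly fixed in advance.

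Kit and Ly6g placed the 2 libraries on their labelled sides, though unequally. Kit, the stem cell factor receptor (chr5:75574916-75656722, mm10), was at 61.8 TPM in HSC/P of HMGA2-OE and 155 and 134 TPM in those of the combined genotype, against 3.43 TPM in Ly6G+ of HMGA2-OE and 5.202, 3.72 and 4.43 TPM in the other Ly6G+ libraries. The 3 HSC/P libraries lay above the 4 Ly6G+ libraries, with HMGA2-OE the lowest of the HSC/P libraries, and the log2 ratio was 3.83. Ly6g (chr15:75155240-75159126) was at 136 TPM in HSC/P of HMGA2-OE and 7.28 and 16.8 TPM in those of the combined genotype, against 269.6 TPM in Ly6G+ of HMGA2-OE and 415, 341 and 441 TPM in the other Ly6G+ libraries. Its log2 ratio was only -0.99: all Ly6G+ libraries lay above all HSC/P libraries, but the HMGA2-OE HSC/P library held 50.3% of the Ly6g level of its Ly6G+ partner, against 1.65% and 3.81% in the RUNX1mut/HMGA2-OE libraries.

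Hmga2 itself (chr10:120361275-120476469) was at 147 TPM in HSC/P of HMGA2-OE and 176 and 138 TPM in those of the combined genotype, against 3.72 TPM in Ly6G+ of HMGA2-OE and 1.45, 1.36 and 12.1 TPM in the other Ly6G+ libraries. Its log2 ratio was 4.97, so the overexpressed gene was far higher in the HSC/P library, while the HMGA2-OE Ly6G+ value lay above Control and RUNX1mut Ly6G+ and below RUNX1mut/HMGA2-OE Ly6G+. Whether the overexpressed sequence is counted under this gene is not stated in the sources used here. Runx1, a transcription factor that starts blood stem cell formation, was at 18.9 TPM in HSC/P of HMGA2-OE and 219 and 225 TPM in those of the combined genotype, against 3.36 TPM in Ly6G+ of HMGA2-OE and 3.85, 11.6 and 21.2 TPM in the other Ly6G+ libraries. The HMGA2-OE HSC/P value for Runx1 lay below RUNX1mut/HMGA2-OE Ly6G+, and whether the sequence of mutant RUNX1 is counted under this gene is not stated in the sources used here either.

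The transcription factors and receptors of stem cells were mostly on the HSC/P side. Of the 20 stem cell transcription factors, 14 were at least 4-fold higher in HSC/P, against 45.9% of all genes, and 0 in Ly6G+. Their median log2 ratio was 3.31 (1.47 above that of all genes). Mecom, a zinc finger factor that maintains stem cells (chr3:29951296-30548008), was at 132 TPM in HSC/P of HMGA2-OE and 2.07 and 5.27 TPM in those of the combined genotype, against 0.087 TPM in Ly6G+ of HMGA2-OE and 0.162, 0.216 and 0.133 TPM in the other Ly6G+ libraries. Its log2 ratio of 6.93 was the largest of the list, and HMGA2-OE HSC/P stood apart from the other 6 libraries. Gfi1b, a repressor needed in the erythroid and megakaryocytic lines, was at 112, 80.3 and 137 TPM in the HSC/P libraries and 0.571, 0.323, 1.79 and 6.77 TPM in the Ly6G+ libraries (log2 ratio 6.17). Tal1 (5.72), Lmo2 (5.05) and Myb (4.85), partners in the progenitor transcription network, were also at least 4-fold above the median ratio. Meis1 and Hlf, known for the most primitive cells, were lower in HMGA2-OE HSC/P (11.3 and 4.48 TPM) than in the combined-genotype pair (67.2 and 93.2 TPM for Meis1, 31.9 and 20.5 TPM for Hlf).

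Among 19 receptors of progenitors that passed the filter, of 20 listed, 13 were at least 4-fold higher in HSC/P, against 45.9% of all genes. In Ly6G+ 1 was at least 4-fold higher, and the list median was 3.05. Epor, the erythropoietin receptor, had the largest ratio (5.76), with 62.7, 25.7 and 34.04 TPM in the HSC/P libraries and 0.174, 0.272, 0.437 and 2.96 TPM in the Ly6G+ libraries. Eng (5.29), Cd34 (4.31) and Cd93 (4.10) were also high. For each of these 4 all HSC/P libraries lay above all Ly6G+ libraries, as for 13 of the 19 receptors and 67.6% of all genes. Cd34 was at 35.8 TPM in HSC/P of HMGA2-OE and 239 and 157 TPM in the combined-genotype pair. The receptor at least 4-fold higher in Ly6G+ was Fcgr3, a low-affinity IgG receptor (55.4 against 329 TPM, log2 ratio -2.55). In all, 5 of the 19 had a ratio below 0, and for 3 every Ly6G+ library lay above every HSC/P library. The list summed to 596 TPM in HMGA2-OE HSC/P and 784 TPM in HMGA2-OE Ly6G+. Procr was the member under the filter, at 0.901 TPM in HSC/P and listed at 0 in Ly6G+.

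The granule genes divided by wave. Of 14 primary granule genes, 9 were at least 4-fold higher in HSC/P, against 45.9% of all genes, and 0 in Ly6G+. Their median log2 ratio was 3.88, with 9 above the median ratio of all genes and 5 below it. Prtn3, which encodes proteinase 3, was at 2488 TPM in HSC/P of HMGA2-OE and 2546 and 1128 TPM in those of the combined genotype, against 16.2 TPM in Ly6G+ of HMGA2-OE and 9.60, 58.1 and 74.7 TPM in the other Ly6G+ libraries (log2 ratio 7.18). Mpo, the myeloperoxidase gene, was at 2429 TPM in HSC/P of HMGA2-OE and 3642 and 2012 TPM in those of the combined genotype, against 53.2 TPM in Ly6G+ of HMGA2-OE and 28.4, 235 and 228 TPM in the other Ly6G+ libraries (5.49). Elane, the neutrophil elastase gene, was at 1359, 1307 and 833 TPM in the HSC/P libraries and 26.7, 16.6, 153 and 101 TPM in the Ly6G+ libraries (5.62), and Ctsg, the cathepsin G gene, was at 848, 1245 and 496 TPM in the HSC/P libraries and 5.81, 2.79, 19.7 and 14.99 TPM in the Ly6G+ libraries (6.96). For these 4 genes every HSC/P library lay above every Ly6G+ library, by a wide margin. The same order held for 9 of the 14 genes and 67.6% of all genes. The HMGA2-OE Ly6G+ library was below RUNX1mut and RUNX1mut/HMGA2-OE Ly6G+ for all 4. Gstm1 (4.49), a glutathione transferase counted here with the primary granule genes, and Nkg7 (4.08), a granule membrane protein, completed the 6 largest. Serpinb1a, an inhibitor of the granule proteases, and Igsf6, both also counted here, stood on the Ly6G+ side in all 7 libraries, with log2 ratios of -0.49 and -1.18.

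The secondary and tertiary granule genes were mostly higher in Ly6G+. Of 22, 18 were at least 4-fold higher in Ly6G+, against 3.39% of all genes, and 1 in HSC/P. The median log2 ratio was -2.50, or -4.34 against all genes. Mmp8, the neutrophil collagenase (chr9:7558456-7568485), was at 16.9 TPM in HSC/P of HMGA2-OE and 4.05 and 5.04 TPM in those of the combined genotype, against 1408 TPM in Ly6G+ of HMGA2-OE and 2072, 2002 and 3013 TPM in the other Ly6G+ libraries. Mmp9, the gelatinase of the last granules, was at 46.7 TPM in HSC/P of HMGA2-OE and 7.04 and 7.66 TPM in those of the combined genotype, against 1525 TPM in Ly6G+ of HMGA2-OE and 2017, 1611 and 2899 TPM in the other Ly6G+ libraries. All Ly6G+ libraries lay above all HSC/P libraries for both, with log2 ratios of -6.30 and -5.00. Fpr1, the formyl peptide receptor (-5.15), Adam8 (-4.62), Slpi, a protease inhibitor (-4.36), and Ceacam10 (-4.03) were the other members with the largest ratios. Adam8 was at 1716 TPM in RUNX1mut Ly6G+ and between 228 and 382 TPM in the other 3 Ly6G+ libraries.

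Olfm4, a granule protein of a subset of neutrophils, had a log2 ratio of 2.47, within the range in which the scaling sets the sign. It was at 125 TPM in HSC/P of HMGA2-OE and 3.23 and 4.38 TPM in those of the combined genotype, against 21.8 TPM in Ly6G+ of HMGA2-OE and 62.3, 53.4 and 129.5 TPM in the other Ly6G+ libraries. HMGA2-OE HSC/P stood far above the other HSC/P libraries and within the range of the Ly6G+ libraries, so the groups overlap. B2m, present in nearly every cell and counted here as a tertiary granule protein, was the other exception, at 2058 TPM in HSC/P and 691 TPM in Ly6G+, a log2 ratio of 1.57 that changes sign with the scaling.

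Secondary granule transcripts were abundant in the HMGA2-OE HSC/P library, and unequally so. Ngp, the neutrophilic granule protein, was at 3708 TPM in HSC/P of HMGA2-OE and 467 and 902 TPM in those of the combined genotype, against 20463 TPM in Ly6G+ of HMGA2-OE and 29874, 23596 and 35186 TPM in the other Ly6G+ libraries. Camp, the cathelicidin gene, was at 3386, 782 and 1437 TPM in the HSC/P libraries and 8989, 11840.2, 12032 and 17568 TPM in the Ly6G+ libraries, and Ltf, the lactoferrin gene, was at 818, 151 and 289.6 TPM in the HSC/P libraries and 8426, 11745, 11372 and 18314 TPM in the Ly6G+ libraries. In each case HMGA2-OE HSC/P was the highest of the HSC/P libraries and below every Ly6G+ library. Taken as a percentage of the HMGA2-OE Ly6G+ level, the HSC/P level was 50.3% for Ly6g, 39.5% for Chil3, 37.7% for Camp, 21.6% for Lcn2, 18.1% for Ngp and 9.71% for Ltf. The same percentage was 3.07% for Mmp9, 2.51% for Fpr1, 1.20% for Mmp8 and 0.798% for Retnlg, a resistin-like secreted protein of mature neutrophils. Over these genes the percentage ranged from 0.798% to 50.3%. Over the whole list the summed level was 16726 TPM in HSC/P of HMGA2-OE against 5776 and 7477 TPM in the combined-genotype pair and between 79941 and 168532 TPM in the Ly6G+ libraries. The part of neutrophil-lineage cells in the HSC/P ratios was not tested.

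**Figure D2:**
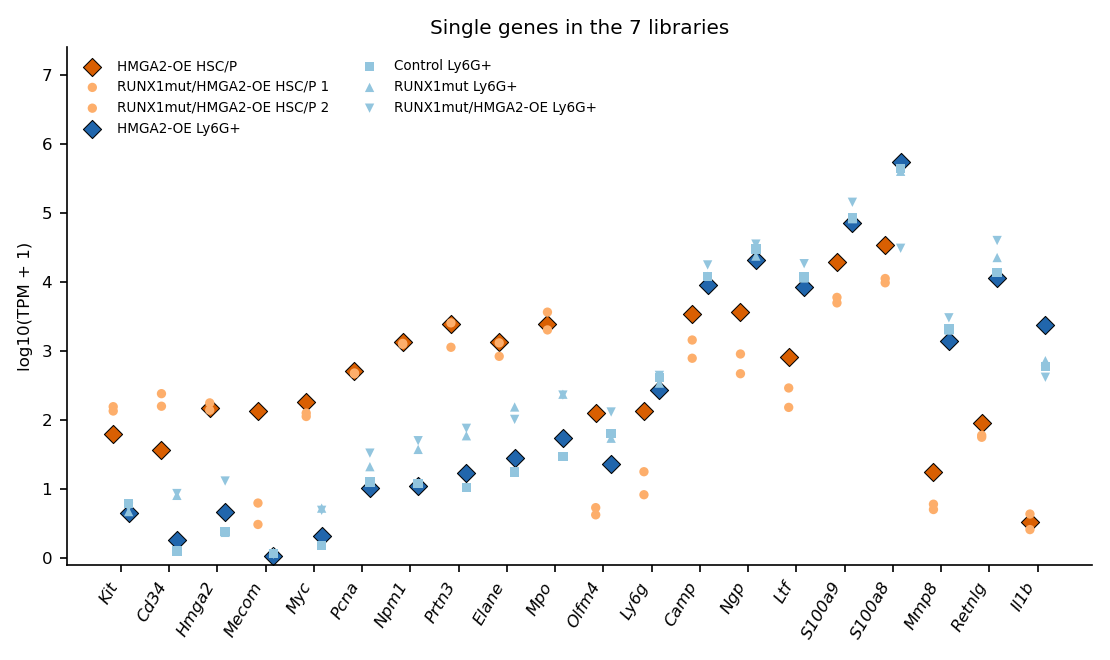
Points are log10(TPM + 1) of 20 genes in the 7 libraries, HSC/P in orange and Ly6G+ in blue, with the 2 HMGA2-OE libraries as outlined diamonds. Progenitor and primary granule genes are higher in every HSC/P library, while for Olfm4, Ly6g, Camp, Ngp and Ltf the HMGA2-OE HSC/P library lies above the combined-genotype pair.

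Genes of the mature neutrophil were the list with the lowest median, -2.94. Of 35 genes, 24 were at least 4-fold higher in Ly6G+, against 3.39% of all genes, and 1 in HSC/P. All Ly6G+ libraries were above all HSC/P libraries for 30 of them, against 9.11% of all genes. S100a8 was at 33943 TPM in HSC/P of HMGA2-OE and 11165 and 9687 TPM in those of the combined genotype, against 546267 TPM in Ly6G+ of HMGA2-OE and 439280.0, 398580.0 and 30622 TPM in the other Ly6G+ libraries. The groups overlap only through RUNX1mut/HMGA2-OE Ly6G+, which was below HMGA2-OE HSC/P, and the HMGA2-OE log2 ratio was -4.01. S100a9, the partner subunit, was at 19224, 4956 and 5953 TPM in the HSC/P libraries and 70749, 83597, 82047 and 141874 TPM in the Ly6G+ libraries, with a log2 ratio of -1.88. Retnlg was at 90.9 TPM in HSC/P of HMGA2-OE and 59.0 and 55.2 TPM in those of the combined genotype, against 11390.5 TPM in Ly6G+ of HMGA2-OE and 13608, 22493 and 39656 TPM in the other Ly6G+ libraries (-6.95). The stefins Stfa2l1 (-5.78) and Stfa3 (-4.64), which inhibit cysteine proteases, were also on the Ly6G+ side, and both were highest in RUNX1mut/HMGA2-OE Ly6G+ (3851 and 2312 TPM). Cxcr2, the receptor that draws neutrophils out of marrow, was at 311 TPM in Ly6G+ and 16.4 TPM in HSC/P (-4.17). Cxcr4, which retains cells in marrow, was the reverse at 13.5 and 121 TPM (3.07), and all HSC/P libraries were above all Ly6G+ libraries. Csf3r, the receptor for the growth factor of granulocytes, was at 556 TPM in Ly6G+ and 42.4 TPM in HSC/P (-3.68).

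Il1b, the interleukin-1 beta gene (chr2:129364570-129371139), had the largest ratio toward Ly6G+ of all named genes, -9.45. It was at 2.34 TPM in HSC/P of HMGA2-OE and 3.35 and 1.59 TPM in those of the combined genotype, against 2337 TPM in Ly6G+ of HMGA2-OE and 597, 722 and 415 TPM in the other Ly6G+ libraries. Every Ly6G+ library was over 100-fold above every HSC/P library, and HMGA2-OE Ly6G+ stood above the other 3 Ly6G+ libraries. Il1r2, the decoy receptor for interleukin 1, was at 4.28, 0.664 and 1.69 TPM in the HSC/P libraries and 207, 154, 75.8 and 62.2 TPM in the Ly6G+ libraries (-5.30), and Il1rn, the receptor antagonist, was at 2.08, 1.51 and 0.719 TPM in the HSC/P libraries and 101, 123, 90.6 and 158 TPM in the Ly6G+ libraries (-5.05). Both were higher in every Ly6G+ library than in every HSC/P library.

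High and low values in the HMGA2-OE Ly6G+ library went with the length of annotated transcripts. Of the 514 genes of the comparison with a GENCODE M21 transcript of 380 to 389 nt, 10.9% were at least 4-fold higher in HMGA2-OE Ly6G+ than in HSC/P, against 3.39% of all genes, and 6.03% were at least 4-fold above Control Ly6G+, against 0.475% of all genes. The next shorter class, 370 to 379 nt, was at least 4-fold under Control Ly6G+ in 18.9% of its 561 genes, against 1.27% of all genes. Il1b has a transcript of 379 nt. Of the 421 genes at least 4-fold higher in Ly6G+, 91 (21.6%) have a transcript of at least 370 and under 400 nt, against 11.4% of all genes, and without such genes the count was 330. What part this length class has in their ratios was not tested. None of S100a8, Mmp8, Mmp9, Retnlg, Il1r2 and Il1rn has a transcript in the range.

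**Figure D3:**
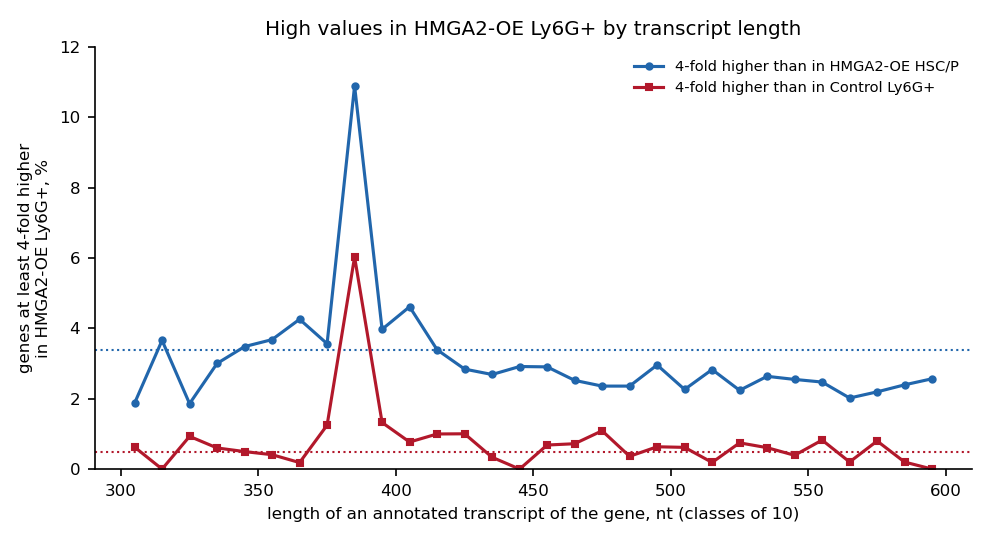
The share of genes at least 4-fold higher in HMGA2-OE Ly6G+ than in HMGA2-OE HSC/P (blue circles) or Control Ly6G+ (red squares), by the length in nt of an annotated transcript in classes of 10, with dotted lines for all genes (3.39% and 0.475%). Both series peak in the class of 380 to 389 nt, at 10.9% and 6.03%.

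Transcription factors of granulocyte fate were on both sides. Of 24, 5 were at least 4-fold higher in HSC/P and 9 in Ly6G+. Myc, which drives growth and division, was at 182, 125 and 111 TPM in the HSC/P libraries and 1.08, 0.516, 4.29 and 3.92 TPM in the Ly6G+ libraries (6.46), with a 381 nt transcript annotated. Mxd1, its antagonist for the partner protein Max, was at 18.9, 10.6 and 12.7 TPM in the HSC/P libraries and 318, 343, 289 and 411 TPM in the Ly6G+ libraries (-4.004). For both genes the HSC/P and Ly6G+ libraries did not overlap, in opposite directions, and Max itself had a log2 ratio of 0.31. The C/EBP factors differed in the same manner. Cebpa, which commits progenitors to the granulocyte line, was at 32.9, 30.2 and 29.8 TPM in the HSC/P libraries and 0.748, 1.45, 0.808 and 0.61 TPM in the Ly6G+ libraries (4.28), whereas Cebpb, a factor of later and emergency granulopoiesis, was at 21.8, 20.6 and 9.12 TPM in the HSC/P libraries and 184, 100.2, 139.5 and 219 TPM in the Ly6G+ libraries (-3.02). Cebpd (-2.12) was with Cebpb, and Cebpe, which the secondary granule genes need, was at 114 and 54.5 TPM, a ratio of 1.05 that changes sign with the scaling. Irf8, the factor of the monocyte branch, was higher in HSC/P (51.2 against 2.84 TPM), as was Zeb2 (23.7 against 1.27 TPM). Spi1, which encodes PU.1, was higher in Ly6G+ (543 against 133 TPM, log2 ratio -2.03).

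Genes of DNA synthesis were on the HSC/P side. All 30 DNA replication genes were at least 4-fold higher in HSC/P, 22 of them at least 4-fold above the median ratio, and the median was 4.28. Cdc45, at 2.36, was the member whose sign depends on the scaling. Pcna, the sliding clamp of DNA polymerase, was at 511 TPM in HSC/P of HMGA2-OE and 465 and 478 TPM in those of the combined genotype, against 9.46 TPM in Ly6G+ of HMGA2-OE and 11.7, 20.1 and 32.1 TPM in the other Ly6G+ libraries (5.61). Mcm2 (5.04) and Mcm7 (4.90), helicase subunits, Gins1 (4.98), Cdt1, a loader of the helicase (4.93), and Ung, which removes uracil from DNA (4.93), were close behind. Cell cycle and mitosis genes had a median of 2.51 over 30 genes, which is 0.68 above all genes, and 2 of them lay 4-fold above the median ratio. These were Ccne1, the cyclin of S phase entry (4.44), and Mki67, the marker of dividing cells, at 112, 71.5 and 70.2 TPM in the HSC/P libraries and 4.97, 7.26, 7.27 and 10.7 TPM in the Ly6G+ libraries (4.24). Top2a was at 265, 212 and 237 TPM in the HSC/P libraries and 17.9, 24.4, 27.9 and 40.9 TPM in the Ly6G+ libraries (3.81). For all 60 genes of the 2 lists every HSC/P library was above every Ly6G+ library on the deposited scale, as for 67.6% of all genes. With the HMGA2-OE libraries scaled by a trimmed mean, 29 of the 30 DNA replication genes and 15 of the 30 cell cycle genes kept a ratio above 0.

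Chromatin genes followed. Of 18 genes of the nuclear envelope and chromatin, 13 were at least 4-fold higher in HSC/P, against 45.9% of all genes, with a median of 3.21. Against the median ratio, 8 of the 18 lay at least 4-fold toward HSC/P. Under a trimmed mean of log ratios the list median was 0.79. Hmga1, the paralog of Hmga2, was at 580.3, 534 and 492 TPM in the HSC/P libraries and 8.90, 9.36, 16.2 and 33.1 TPM in the Ly6G+ libraries (5.88). Hmgn1, which loosens nucleosomes (5.78), Nucks1 (4.87), Dek (4.64) and Cbx5, a heterochromatin protein (4.63), were also at least 4-fold above the median ratio.

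The machinery of ribosomes and translation stood far toward HSC/P. Over 35 cytosolic ribosomal protein genes the median log2 ratio was 5.58, over 25 genes of ribosome assembly it was 5.15, and over 20 translation factors it was 4.47. Every one of these 80 genes was at least 4-fold higher in HSC/P, and for Polr1a (2.21) and Eif4g2 (2.01) the sign depends on the scaling. Fbl, the methyltransferase of ribosomal RNA, was at 353 TPM in HSC/P of HMGA2-OE and 394 and 366 TPM in those of the combined genotype, against 1.06 TPM in Ly6G+ of HMGA2-OE and 0.585, 8.47 and 9.20 TPM in the other Ly6G+ libraries (7.42). Npm1, which moves ribosome subunits out of the nucleolus, was at 1364, 1285 and 1246 TPM in the HSC/P libraries and 10.2, 10.98, 36.5 and 49.1 TPM in the Ly6G+ libraries (6.93). Gnl3 (6.33), Gar1 (6.03), Nop58 (5.86) and Ncl (5.73) were the other assembly genes with the largest ratios. Eef1a1, the elongation factor that brings tRNA to the ribosome, was next after S100a8 and S100a9 by level in the HSC/P library, at 7725 TPM against 136 TPM in Ly6G+ (5.82). The 35 ribosomal protein genes of the list summed to 81574 TPM in HSC/P and 2165 TPM in Ly6G+.

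Single ribosomal protein genes are less sure than the group, since near-identical pseudogenes may share their reads, which was not tested. Rpl22 was at 2231, 2255 and 2033 TPM in the HSC/P libraries and 14.96, 156, 129.9 and 60.3 TPM in the Ly6G+ libraries, and Rplp1 was at 6337, 6908 and 6522 TPM in the HSC/P libraries and 51.6, 41.8, 96.8 and 163 TPM in the Ly6G+ libraries, with log2 ratios of 7.13 and 6.91. Rpl38 was at 3287, 4117 and 3906 TPM in the HSC/P libraries and 13.02, 857, 596 and 34.7 TPM in the Ly6G+ libraries: HMGA2-OE Ly6G+ lay far under Control and RUNX1mut Ly6G+, and the gene has a transcript of 371 nt. Rps28 was at 5227, 3764 and 3611 TPM in the HSC/P libraries and 691, 344, 546 and 62.3 TPM in the Ly6G+ libraries and also has a transcript in that range (372 nt).

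Genes of the mitochondrial genome had the highest list median, 5.69, over 13 genes, all at least 4-fold higher in HSC/P. Their summed level was 43639 TPM in HSC/P and 1547 TPM in Ly6G+. mt-Co1, a subunit of cytochrome oxidase, was at 6273, 6144 and 6748 TPM in the HSC/P libraries and 319.8, 445, 499 and 819 TPM in the Ly6G+ libraries (4.29). mt-Nd4l (10.06) and mt-Nd3 (9.04), 2 short genes of complex I, had the largest ratios, and mt-Nd4l has a nuclear copy, Gm10222, that may share its reads and was listed with the same values. The 29 nuclear genes of oxidative phosphorylation were nearer to all genes, with a median of 2.43 and 1 member, Atp5g1 (4.47), 4-fold above the median ratio.

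Sensors and effectors of neutrophils had medians on the Ly6G+ side. Of 24 Fc, lectin and Toll-like receptor genes, 13 were at least 4-fold higher in Ly6G+, 0 in HSC/P, and the median was -2.50. Tlr13, a sensor of bacterial ribosomal RNA, was at 0.599, 1.76 and 0.663 TPM in the HSC/P libraries and 36.7, 40.7, 31.9 and 53.6 TPM in the Ly6G+ libraries (-4.56). Pirb, an inhibitory receptor (-4.22), Fcer1g, the signalling chain of Fc receptors (-3.05), and Clec4d (-3.77) were with it. Myd88, the adaptor of Toll-like receptors, was at 464 TPM in HMGA2-OE Ly6G+ and between 84.7 and 124 TPM in the other Ly6G+ libraries (-3.73), and Clec4e had a ratio of -3.88. Both have transcripts of at least 370 and under 400 nt.

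The 9 genes of the NADPH oxidase, which makes superoxide, had a median of -1.27, and Cybb, its catalytic subunit, was the 1 member past 4-fold, at 144, 44.6 and 34.8 TPM in the HSC/P libraries and 741, 629, 461 and 647 TPM in the Ly6G+ libraries (-2.36). Of 13 leukotriene genes 3 were at least 4-fold higher in Ly6G+: Pla2g7 (-5.32), Alox5, the lipoxygenase that starts the pathway (-3.24), and Ltb4r1, a receptor for leukotriene B4 (-2.09). Pla2g4a, which frees the arachidonic acid, had a ratio of 1.81, close to that of all genes.

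Among 24 genes of the actin cytoskeleton 6 were at least 4-fold higher in Ly6G+ and 1 in HSC/P, with a median of -0.74. The 2 thymosins, which hold actin monomers, were apart: Tmsb10 was at 573, 774 and 667 TPM in the HSC/P libraries and 17.4, 18.5, 18.8 and 16.3 TPM in the Ly6G+ libraries (4.96), and Tmsb4x was at 2769, 2301 and 3595 TPM in the HSC/P libraries and 4401, 5469, 5827 and 8941 TPM in the Ly6G+ libraries (-0.67). The groups did not overlap for either, in opposite directions. Fgr (-4.35), a Src-family kinase, and Coro1a (-3.36), an actin regulator, were on the Ly6G+ side and have transcripts of 385 and 388 nt, while Lsp1 (-3.04) and Gsn (-2.67) have none in that range. Integrin genes stood on both sides. Itga4 (4.18), Itga2b (3.94) and Itgb1 (3.05) were higher in HSC/P, and Itgb2l (-2.52), Itgb2 (-2.26) and Itgam (-1.92), of the leukocyte integrins, were higher in Ly6G+.

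Stress-responsive and inflammatory genes leaned to Ly6G+. Of 18 immediate early genes that passed the filter, of 22 listed, 6 were at least 4-fold higher in Ly6G+ and 1 in HSC/P, with a median of -1.58. Dusp1, a phosphatase of MAP kinases, was at 4.78, 4.33 and 9.12 TPM in the HSC/P libraries and 249.3, 344, 168 and 204 TPM in the Ly6G+ libraries (-5.44). Fos was at 4.65, 3.08 and 17.4 TPM in the HSC/P libraries and 97.8, 192, 63.2 and 60.6 TPM in the Ly6G+ libraries (-4.13), and Zfp36 (-3.18), Junb (-2.82), Klf2 (-2.77) and Btg2 (-2.76) were similar in direction. For these 6 every Ly6G+ library was above every HSC/P library, as for 11 of the 18 genes and 9.11% of all genes. The 6 were named by their HMGA2-OE ratio, so this is partly fixed in advance. Of 22 NF-kB and inflammation genes 6 were at least 4-fold higher in Ly6G+ and 2 in HSC/P. Ccl6, a chemokine, was at 10.97, 16.8 and 9.53 TPM in the HSC/P libraries and 791, 901, 1252 and 1639.5 TPM in the Ly6G+ libraries (-6.05), and Nfkb1, a subunit of the factor itself, was the reverse at 72.0, 90.6 and 85.0 TPM in the HSC/P libraries and 5.98, 7.96, 13.7 and 16.4 TPM in the Ly6G+ libraries (3.38). The 25 interferon-responsive genes had a median of -0.64, with 4 past 4-fold toward HSC/P, Bst2 (4.01) the furthest, and 2 toward Ly6G+, Ifit3 (-2.74) and Oas3 (-2.11).

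Metabolic and death genes lay between these extremes. Glycolysis genes had a median of 0.15, with Pfkm, a phosphofructokinase (5.14), higher in HSC/P, and Slc16a3, a lactate exporter (-2.95), and Slc2a3, a glucose transporter (-2.24), higher in Ly6G+. Lysosome genes had a median of 0.32, which changes sign with the scaling, and 2 of 26 were past 4-fold. Lipid synthesis genes had a median of 1.97, near that of all genes, with Scd2 (5.33), Fasn (4.66) and Acaca (4.07), which desaturate or build fatty acids, the furthest toward HSC/P. Among 24 apoptosis genes Bak1, which opens the outer mitochondrial membrane, was at 85.9, 83.8 and 76.4 TPM in the HSC/P libraries and 0.159, 0.314, 0.401 and 0.91 TPM in the Ly6G+ libraries (6.23), and Fas, a death receptor, was at 2.34, 1.79 and 4.32 TPM in the HSC/P libraries and 30.1, 35.7, 39.4 and 60.3 TPM in the Ly6G+ libraries (-3.22).

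**Figure D4:**
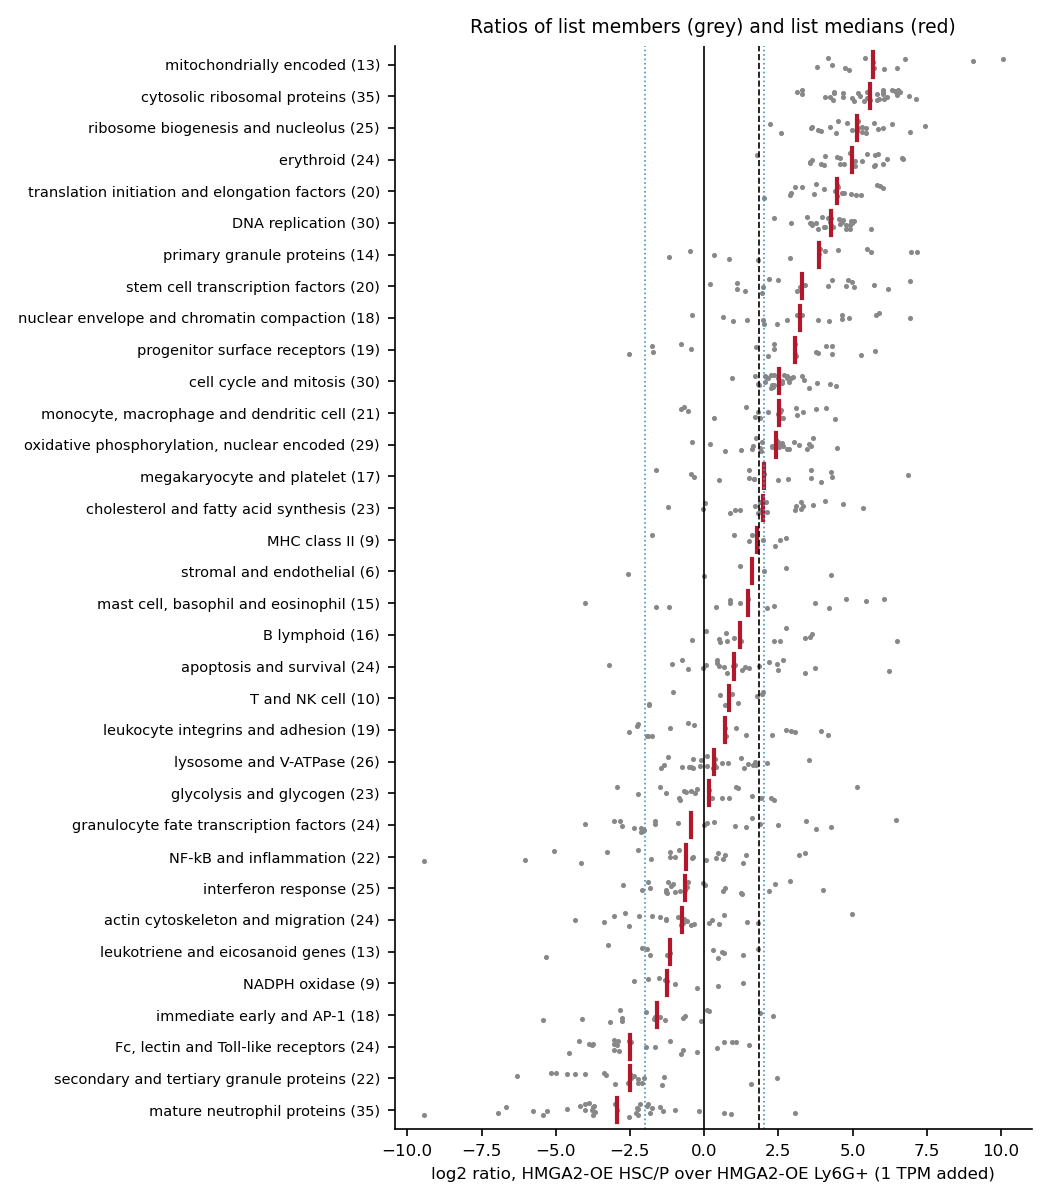
Each row is 1 of 34 gene lists with the number of members that passed the filter. Grey points are members, placed by their log2 ratio of HMGA2-OE HSC/P over Ly6G+ (x axis), and red bars are list medians; lines mark 0 (solid), the median of all genes at 1.83 (dashed) and 4-fold (dotted). Medians run from -2.94 for mature neutrophil genes to 5.69 for mitochondrially encoded genes.

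Among genes of other blood lineages, the erythroid genes stood toward HSC/P, and 9 of 17 megakaryocyte, 7 of 15 mast cell and 7 of 16 B lymphoid genes were at least 4-fold higher there, against 45.9% of all genes. Of 24 erythroid genes, 23 were at least 4-fold higher in HSC/P and the median was 4.99. Klf1, the erythroid master regulator, was at 129.8 TPM in HSC/P of HMGA2-OE and 43.3 and 69.3 TPM in those of the combined genotype, against 0.851 TPM in Ly6G+ of HMGA2-OE and 0.464, 2.22 and 9.15 TPM in the other Ly6G+ libraries (6.14). Gata1 (5.87), Car2, a carbonic anhydrase (6.65), and Ermap, an erythrocyte membrane protein (6.70), had similar ratios. The adult beta-globin gene Hbb-bs was at 485, 196 and 449 TPM in the HSC/P libraries and 28.8, 32.4, 116 and 4934 TPM in the Ly6G+ libraries, and RUNX1mut/HMGA2-OE Ly6G+ had the highest value of all libraries. Summed over the list, erythroid genes were at 4341 TPM in HSC/P of HMGA2-OE, 2094 and 3799 TPM in the combined-genotype pair, 149 TPM in HMGA2-OE Ly6G+ and 7129.9 TPM in RUNX1mut/HMGA2-OE Ly6G+, with no member at 0 in either HMGA2-OE library.

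Megakaryocyte genes had a median of 2.01 over 17 genes. Pf4, the platelet factor 4 gene, was at 355, 339 and 983 TPM in the HSC/P libraries and 2.02, 1.32, 18.6 and 35.2 TPM in the Ly6G+ libraries (6.88), while Itga2b was at 22.5 TPM in HSC/P of HMGA2-OE and 313 and 639.6 TPM in the combined-genotype pair. The list summed to 893 TPM in HMGA2-OE HSC/P and 454 TPM in HMGA2-OE Ly6G+, and Gp6, the collagen receptor of platelets, was at 0 in HMGA2-OE HSC/P. Eosinophil granule genes were on the HSC/P side: Prg2, the major basic protein gene, was at 614, 400.2 and 156 TPM in the HSC/P libraries and 8.24, 4.37, 70.1 and 56.6 TPM in the Ly6G+ libraries (6.06), and Epx, eosinophil peroxidase, had a ratio of 5.43. The mast cell proteases Mcpt4, Cma1 and Tpsb2 were at 0 in both HMGA2-OE libraries, and 15 of 20 genes of the mast cell, basophil and eosinophil list passed the filter. Hdc, which makes histamine, was its member at least 4-fold higher in Ly6G+ (-4.01). The list summed to 871 TPM in HMGA2-OE HSC/P and 399.4 TPM in HMGA2-OE Ly6G+.

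Lymphoid genes were led by immunoglobulin. Igkc, the kappa light chain constant gene, was at 3881, 3597 and 525 TPM in the HSC/P libraries and 42.1, 45.4, 79.0 and 116 TPM in the Ly6G+ libraries (6.49) and made up most of the summed B lymphoid level of 4245 TPM in HMGA2-OE HSC/P, against 107 TPM in Ly6G+. Ms4a1, a defining B cell gene, was at 0.728 TPM in HSC/P. T and NK cell genes summed to 25.7 TPM in HSC/P and 22.7 TPM in Ly6G+, and 10 of 19 passed the filter. Cd3d was the only one at 10 TPM or more, at 10.2 TPM in Ly6G+. Monocyte and macrophage genes summed to 1223 TPM in HSC/P and 1116 TPM in Ly6G+, mostly through Ly6c2, and Ms4a6c (65.1 against 2.14 TPM), F13a1 (4.11) and C1qa (3.34) were higher in HSC/P. MHC class II genes had a median of 1.76, close to that of all genes, and summed to 158 TPM in HSC/P and 61.9 TPM in Ly6G+. Of the stromal and endothelial list 6 of 18 genes passed the filter, with a sum of 58.0 TPM in HSC/P and 12.4 TPM in Ly6G+. The part of these other cells in any ratio was not tested.

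The 25 named genes of largest ratio on each side, among 2895 genes with at least 50 TPM in the higher library, passed over 16 pseudogenes or clone names toward HSC/P and 15 toward Ly6G+. Toward HSC/P they were mt-Nd4l, Rps12, mt-Nd3, Ybx3, Rpl38, Mt2, Snrpg, Pabpc4, Rpl36a, Aqp1, Hnrnpa0, Fbl, Prtn3, Rpl22, Rpl39, Rps27rt, Hspe1, Ctsg, Rpl13a, Mecom, Npm1, Igkv4-71, Rps20, Rplp1 and Pf4. All but Rps12 had every HSC/P library above every Ly6G+ library, against 67.6% of all genes. The pair that ranked them is among those libraries, so this is partly fixed in advance. Ybx3, an RNA-binding protein, was at 382, 321 and 325 TPM in the HSC/P libraries and 0.176, 0.301, 0.679 and 1.07 TPM in the Ly6G+ libraries (8.35). Pabpc4, a poly(A)-binding protein, was at 267, 187 and 199.9 TPM in the HSC/P libraries and 0.328, 0.123, 2.07 and 1.83 TPM in the Ly6G+ libraries (7.66). Mt2, a metallothionein, was at 373, 111 and 93.1 TPM in the HSC/P libraries and 0.629, 0.191, 1.11 and 1.77 TPM in the Ly6G+ libraries (7.84), and HMGA2-OE was the highest of the HSC/P libraries. Hspe1, the mitochondrial co-chaperonin, had a ratio of 6.97, and Aqp1, a water channel of red cells, one of 7.55.

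Toward Ly6G+ the 25 were Il1b, Lhx1, Bend6, Retnlg, Osgin1, Grb14, Mmp8, Arg2, Cd300ld, Ccl6, Cyp4f18, Prr5l, Myh14, Stfa2l1, Rin2, Tmcc1, Dusp1, Wfdc17, Pla2g7, Il1r2, Hist2h2aa2, Fpr1, Il1rn, Mmp9 and Tarm1. Of these, 9 have an annotated transcript of at least 370 and under 400 nt, against 5 of the 25 toward HSC/P and 15.3% of the 2895 genes: Il1b, Lhx1, Bend6, Osgin1, Grb14, Prr5l, Myh14, Rin2 and Tmcc1. Of the 25 toward Ly6G+, all but Myh14 had every Ly6G+ library above every HSC/P library, against 9.11% of all genes. This too is partly fixed in advance by the ranking. Grb14, an adaptor of the insulin receptor, was at 0.132, 0.239 and 0.172 TPM in the HSC/P libraries and 102, 2.84, 2.60 and 1.65 TPM in the Ly6G+ libraries. Myh14, a nonmuscle myosin, was at 0, 0 and 0.0884 TPM in the HSC/P libraries and 54.6, 0.347, 0.021 and 0.0675 TPM in the Ly6G+ libraries. HMGA2-OE Ly6G+ stood alone for both of these genes. Among those without such a transcript, Arg2, the mitochondrial arginase, was at 0.438, 0.141 and 0.49 TPM in the HSC/P libraries and 98.3, 80.0, 96.2 and 156 TPM in the Ly6G+ libraries (-6.11). Cd300ld, an activating receptor, was at 0.74, 0.949 and 0.966 TPM in the HSC/P libraries and 118, 115, 130.0 and 203 TPM in the Ly6G+ libraries (-6.10). Cyp4f18, which degrades leukotriene B4, was at 3.13, 4.30 and 2.39 TPM in the HSC/P libraries and 246, 345, 252 and 415 TPM in the Ly6G+ libraries (-5.90), and Tarm1, a receptor of neutrophils, had a ratio of -4.96. The 4 Ly6G+ libraries lay close together for these, far from the HSC/P libraries.

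The same cell types of the RUNX1mut/HMGA2-OE genotype, which share no library with the HMGA2-OE pair, gave most of these differences again. Of the 421 genes at least 4-fold higher in HMGA2-OE Ly6G+, 316 (75.1%) were at least 4-fold higher in RUNX1mut/HMGA2-OE Ly6G+ than in both of its HSC/P libraries, against 5.29% of all genes, and 19 were higher in both HSC/P libraries. Of the 5702 genes at least 4-fold higher in HMGA2-OE HSC/P, 3029 (53.1%) were again at least 4-fold higher, against 26.6% of all genes. Some lists stood differently in the 2 genotypes, by values that were not tested. Secondary and tertiary granule genes had a median of -2.50 in HMGA2-OE and -5.31 and -5.14 in RUNX1mut/HMGA2-OE. Erythroid genes had 4.99 against 1.82 and 2.04, and primary granule genes 3.88 against 2.10 and 1.55. Megakaryocyte genes had 2.01 against 2.50 and 3.96. Lower medians in RUNX1mut/HMGA2-OE were not particular to granule and erythroid genes. Ribosomal protein genes had 5.58 against 4.15 and 4.18, mitochondrially encoded genes 5.69 against 4.01 and 3.99, and DNA replication genes 4.28 against 2.79 and 2.94. Stem cell transcription factors had 3.31 against 3.38 and 3.38. The median of all genes was 1.83 in HMGA2-OE and 1.17 and 1.22 in RUNX1mut/HMGA2-OE.

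**Figure D5:**
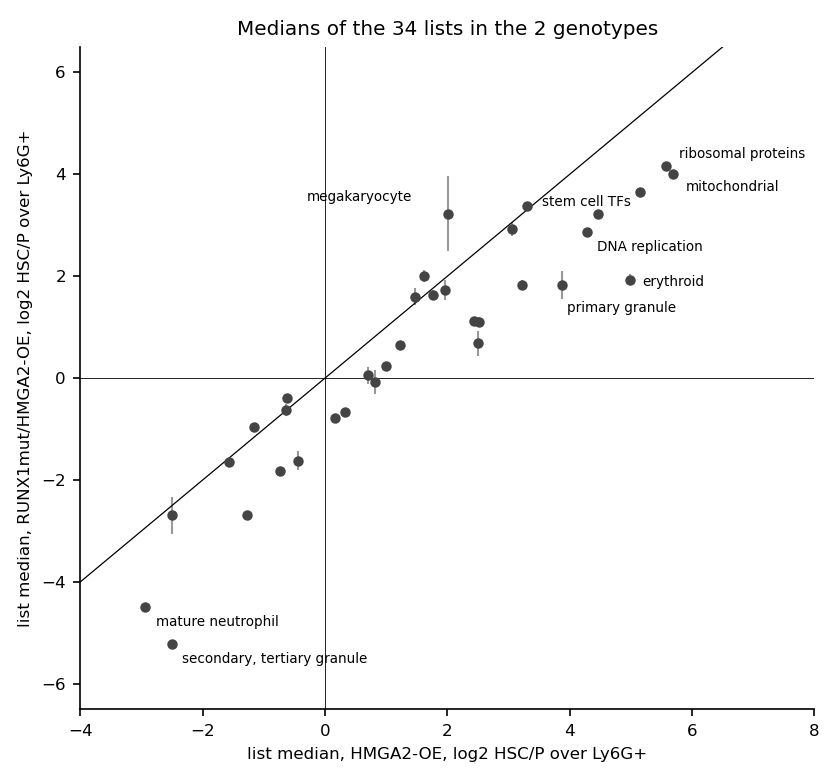
Each point is 1 of 34 gene lists, at its median log2 ratio of HSC/P over Ly6G+ in HMGA2-OE (x axis, 1 pair of libraries) and RUNX1mut/HMGA2-OE (y axis, mean of the 2 HSC/P libraries against 1 Ly6G+ library, bars reaching both values), with the line of equality. Erythroid, primary granule and both later neutrophil lists lie below the line, as do the ribosomal protein, mitochondrial and DNA replication lists. The megakaryocyte list lies above it.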

How the data were processed

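The authors deposited 1 table of TPM values for 28987 genes in 7 libraries. Per the submitters' processing notes it was made with bcl2fastq, CASAVA 1.8 and kallisto on mm10. The values of each library sum to 896820 to 993009 and are not counts, so the sequencing depth behind each library is unknown, no counting interval can be given, and near-identical genes may share reads. Gene symbols came from GENCODE M21 for 27475 genes and 1512 stayed unmatched. Genes with at least 1 TPM in either HMGA2-OE library were kept, and log2 ratios used a pseudocount of 1 TPM, in Python 3.11.15 with pandas 2.3.3. With 1 library on each side no p-value was computed, and 4-fold was used as the size to count. The calculation was tested on simulated data with a smaller shift between libraries and few changed genes, balanced in direction. That test does not cover differences as many and one-sided as those here.

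The comparison and the 34 gene lists were chosen with earlier results of these data known. Named by rule were Kit, Ly6g, Hmga2 and Runx1, the 25 genes of largest ratio on each side with at least 50 TPM, up to 6 genes a list with at least 10 TPM, and the 15 most abundant genes of each library, without clone names and pseudogenes. Genes named beyond that rule were chosen after their values were seen. Alternatives were other pseudocounts, filters, fold sizes and scalings, leaving out libraries of other genotypes and, chosen after seeing the data, leaving out genes with a transcript of at least 370 and under 400 nt. Promoters came from RefSeq (GRCm38.p6). A few genes picked by that rule are left out of the text.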

Additional observations from a re-analysis of the deposited data

Results flagged for a closer look

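In 7 named genes the HMGA2-OE ratio had the opposite sign to both ratios of the RUNX1mut/HMGA2-OE genotype, a difference that was not tested. Rps12, a ribosomal protein gene, had a log2 ratio of 10.03 (10 when rounded) in HMGA2-OE, a value set by the pseudocount because the Ly6G+ level is listed at 0, and -6.25 and -0.10 in RUNX1mut/HMGA2-OE. It was at 1045 TPM in HSC/P of HMGA2-OE, effectively 0 and 69.9 TPM in the HSC/P pair of RUNX1mut/HMGA2-OE, 75.2 TPM in its Ly6G+ library and listed at 0 in the other 3 Ly6G+ libraries, which for a gene that every cell uses can be a failed estimate. Ctsb, which encodes the lysosomal protease cathepsin B, had 1.63 in HMGA2-OE against -0.10 and -0.40, and was at 94.6, 79.8 and 64.4 TPM in the HSC/P libraries and 29.9, 41.8, 61.6 and 85.5 TPM in the Ly6G+ libraries. Against the median of all genes the HMGA2-OE ratio of Ctsb was -0.20, the same sign as in the combined genotype. Ifitm1, an interferon-induced membrane protein gene, had -1.88 against 2.50 and 0.51, and was at 147, 315 and 78.3 TPM in the HSC/P libraries and 546, 215, 54.3 and 54.7 TPM in the Ly6G+ libraries, the highest in HMGA2-OE Ly6G+. Olfm4, a granule protein gene, had 2.47 against -4.95 and -4.60. Hbb-bs, the adult beta-globin gene, had 4.03 against -4.65 and -3.46. The transcription factor genes Cebpe and Max had 1.05 against -0.97 and -1.44, and 0.31 against -0.75 and -0.60. The ratios of Ctsb, Olfm4, Cebpe and Max lie in the range where the sign depends on the scaling.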

How the results depend on the processing

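No paired analysis was possible because each side of the comparison has 1 library and the labels give no shared replicate numbers to it. Pseudocounts, fold sizes and scalings moved the counts of genes at least 4-fold higher in HSC/P and in Ly6G+, which were 5702 and 421. They were 2914 and 260 with a pseudocount of 5 TPM, 1288 and 1601 centred on the median, 1706 and 2215 scaled by a trimmed mean, 3700 and 971 as shares without S100a8 and S100a9, 8853 and 920 at 2-fold, and 2811 and 187 at 8-fold. Counts of genes whose cell types did not overlap were 4502 and 4366 with a trimmed mean, and 2119 toward Ly6G+ without S100a8 and S100a9. Leaving out each library of another genotype in turn gave 8472 to 9419 and 1164 to 1225. Some list medians changed sign. Centred on the median they were -1.13 for integrins, -1.68 for glycolysis, -1.51 for lysosome, -0.83 for apoptosis, -0.36 for mast cell, -0.61 for B lymphoid, -1.01 for T and NK cell, -0.071 for MHC class II and -0.22 for stromal genes. With the trimmed mean they were -1.83 for integrins, -0.067 for oxidative phosphorylation, -2.38 for glycolysis, -2.21 for lysosome, -1.43 for apoptosis, -0.085 for cholesterol, -0.42 for mast cell and -0.39 for T and NK cell genes. Without S100a8 and S100a9 they were -0.46 for integrins, -0.9997 for glycolysis, -0.84 for lysosome and -0.088 for apoptosis genes, and without genes with a transcript of at least 370 and under 400 nt -0.046 for glycolysis. No other list median changed sign under the alternatives run.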

Other observations

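Gene families outside the lists were collected by symbol after the ratios had been seen, so their values are descriptions on the log2 scale of HMGA2-OE HSC/P over Ly6G+, beside the median of 1.83 and the 45.9% at least 4-fold higher in HSC/P for all genes. Families that process RNA or make, fold or degrade proteins had medians above that of all genes. The 24 genes with Snrp or Lsm symbols, among them the core proteins of the spliceosome, had a median of 3.67 with 20 at least 4-fold higher in HSC/P. The 20 hnRNP genes had 3.46 with 18, the 77 genes of the mitochondrial ribosome 2.90 with 69, and the 17 aminoacyl-tRNA synthetase genes, which charge tRNA with amino acids, 3.20 with 16. The 6 matched genes with Cct symbols, subunits of the cytosolic chaperonin that folds actin and tubulin, were each at least 4-fold higher in HSC/P, with a median of 3.94. The 48 genes with Psm symbols, most of them proteasome subunits, had a median of 2.58 with 36 at least 4-fold higher in HSC/P. That median is close to 2.54, up to which a trimmed mean of log ratios can change the sign. Of the 48, 7 lay at least 4-fold above the median ratio. None of these 6 families had a member at least 4-fold higher in Ly6G+.

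Other families stood elsewhere. The 37 cluster histone genes had a median of -0.59, with 5 at least 4-fold higher in HSC/P and 6 in Ly6G+. All DNA replication genes were at least 4-fold higher in HSC/P. Many of the histone genes were at only a few TPM in both libraries. Hist2h2aa2 alone held 200 of the 531 TPM to which the family summed in HMGA2-OE Ly6G+. Among 6 Cd300 receptor genes, a family of paired activating and inhibitory receptors of myeloid cells, 4 were at least 4-fold higher in Ly6G+. The 7 Schlafen genes had 2 members at least 4-fold higher in HSC/P and 3 in Ly6G+. The 44 Rab genes, which steer vesicles, had a median of 0.75, below that of all genes, and the sign of such a value changes with the scaling.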
